A study of Homo sapiens with 33 samples.

Results

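RT112 R3 in drug was set against untreated parental RT112, with 3 arrays in each group, 6 of the 33 arrays of the series. RT112 is an established urothelial carcinoma cell line driven by a fusion of the receptor gene FGFR3 with TACC3, and R3 is 1 of its resistant derivatives. It was selected at a constant high dose of PD173074, a small molecule that blocks the kinase of the FGF receptors, and was kept in 1 µM of it. The parental cells were grown without drug. R3 is a mixed culture and not a clone, in which the larger part of the cells, but not all, carries an activating HRAS mutation that parental cells lack, by the study's sequencing, and both lines share a deletion that leaves 1 copy of HRAS. A lower level in it can come from fewer cells with a transcript or from less of it per cell, which cannot be told apart. Its copy number profile differed from that of parental cells by a loss on the short arm of chromosome 4 and by gains on the long arm of 4 and on the short arm of 8. The other conditions used were R3 grown out of drug for 4 to 6 passages, the derivatives R1 in 1 µM and R2 in 2 µM PD173074, and parental RT112 treated for 24 h. The groups of the main comparison differ at once in drug, in selection and in genotype, and these cannot be told apart in it. The labels do not say that the 3 arrays of a condition came from separate cultures, so the p-values measure the spread between these arrays, which may be technical.

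FGF receptors are receptor tyrosine kinases that pass their signal through RAS to the kinase cascade ending in ERK, and through PI3K to AKT. Active ERK induces its own brakes, the DUSP phosphatases and the Sprouty and SPRED proteins, together with the ETS factors ETV4 and ETV5, so the level of their mRNAs is widely read as the output of the cascade. RAS proteins act below the receptor, so a cell with an active HRAS can signal to ERK while the receptor kinase is blocked. In urothelium, FGFR3 is a gene of the luminal, differentiated state, which is also marked by uroplakins and by the keratins of the upper cell layers.

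The array reads RNA with probes for most human transcripts, and each level is a log2 value after robust multi-array averaging (RMA), so that a difference of 1 is a factor of 2. All 10 epithelial markers had a mean log2 level above 6 in both groups. Summed on the linear scale, their signal was 224400 to 260200 in R3 in drug and 286900 to 325900 in parental cells. The endothelial list summed to 299 to 326 in R3 in drug and 320 to 355 in parental cells, and the immune list to 478 to 597 in R3 in drug and 765 to 854 in parental cells, with 1 member of each above a log2 level of 6 in both groups, ESAM and CD68. The fibroblast list summed to 918 to 4382 in R3 in drug and 1060 to 1244 in parental cells. 1 member was called in these 4 lists, S100A4, which fell. Most of the fibroblast spread was the proteoglycan gene LUM, at log2 levels of 9.33, 10.32 and 12 in R3 in drug and 9.83, 9.75 and 9.51 in parental cells. R3 in drug was uneven: replicates 1 and 2 lay 39.6 apart in Euclidean distance over 22465 genes, and replicate 3 lay 68.7 and 48.9 from them, against distances of 30.2 to 35.7 among the parental arrays. The part of these shifts in the results was not tested.

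Of the 22465 genes tested, 202 (0.899%) were higher and 237 (1.05%) were lower in R3 in drug than in parental cells at an adjusted p under 0.01 (limma with Benjamini-Hochberg adjustment), 1.95% in all, and these are the genes called here. At an unadjusted p under 0.05 the share was 27.7%. The change was at least 2-fold for 103 of the genes that rose and 106 of those that fell. The 3 R3 arrays lay wholly above the 3 parental arrays for 15.8% of all genes and wholly below them for 16.5%, and the median log2 difference over all genes was 0.00. These calls rest on few arrays. The count was 115 without R3 replicate 1, 5 without replicate 2 and 738 without replicate 3, and 9, 2 and 1 without parental replicates 1, 2 and 3. Of the 89 genes named by the rule that were called, 38 kept the call without R3 replicate 1, 4 without replicate 2 and 80 without replicate 3, and 8, 2 and 1 without parental replicates 1, 2 and 3. None changed direction. CEACAM6 kept its call in each of these 6 fits.

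FGFR3 mRNA fell in R3 in drug. The gene value does not tell the receptor's own transcript from that of its fusion. Its log2 levels were 7.05, 7.26 and 7.92 in R3 in drug and 9.87, 10.42 and 10.61 in parental cells, a 7.41-fold fall (log2 difference -2.89 ± 0.28 SE, adjusted p = 0.00477) with no overlap between groups. The level averaged 8.74 ± 0.40 in R3 out of drug and 10.86 ± 0.16 in parental cells after 24 h of drug (log2, SD, n = 3 each). FGFR3 was the single member called among 21 FGF receptors and ligands, whose median log2 difference was 0.01. FGFR2 had log2 levels of 7.18, 6.86 and 6.83 in R3 in drug and 6.35, 6.40 and 6.40 in parental cells, which do not overlap but missed the threshold (adjusted p = 0.0257). FGFR1 lay at 5.42, 5.39 and 5.32 in R3 in drug and 5.33, 5.28 and 5.33 in parental cells on the log2 scale, so both groups lay close to the array median. TACC3, the fusion partner, differed by -0.54 (log2, adjusted p = 0.024).

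HRAS, the gene mutated in most of R3, was not called. Its log2 levels were 6.80, 6.78 and 6.60 in R3 in drug and 6.59, 6.58 and 6.61 in parental cells, and R3 replicate 3 lay within the parental range (log2 difference 0.13 ± 0.08 SE, adjusted p = 0.319). None of the 36 components of the RAS to ERK cascade on the list passed the threshold in either direction. The largest differences were those of RRAS2, a RAS relative, at log2 levels of 11.18, 10.63 and 10.40 in R3 in drug and 9.92, 9.94 and 9.70 in parental cells (adjusted p = 0.0448), and of PLCE1, a phospholipase that binds RAS, at 9.77, 10.10 and 10.59 in R3 in drug and 10.88, 11.06 and 10.92 in parental cells on the log2 scale (adjusted p = 0.0586). Both pairs of groups were separate, but neither gene was called. None of 27 PI3K, AKT and mTOR genes was called. The mTOR inhibitor DEPTOR was at 5.25, 5.21 and 5.32 in R3 in drug and 6.0, 6.92 and 8.26 in parental cells (log2, adjusted p = 0.0839), with most of the spread among the parental arrays.

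The genes that ERK induces were in part lower. Of 43 genes of ERK output, 0 rose, 3 fell (6.98%, beside 1.05% of all genes) and 40 were not called, with a median log2 difference of -0.04. Of these genes 11 (25.6%, beside 16.5% of all genes) lay wholly below and 5 (11.6%, beside 15.8%) wholly above the parental arrays. DUSP6, the phosphatase that dephosphorylates ERK, stood at log2 levels of 9.68, 8.80 and 8.37 in R3 in drug and 11.52, 11.92 and 12.44 in parental cells, an 8.06-fold fall (adjusted p = 0.00928). The collagenase MMP1 fell 8.98-fold, at 5.91, 6.34 and 5.73 in R3 in drug and 8.64, 8.87 and 9.97 in parental cells (log2, adjusted p = 0.0073), and TFPI2, a secreted inhibitor of serine proteases, fell 7.73-fold, at 8.69, 8.66 and 8.31 in R3 in drug and 11.07, 11.74 and 11.70 in parental cells (log2, adjusted p = 0.00271). In each of the 3 genes every R3 array lay below every parental array. ETV4 came close to the threshold, with log2 levels of 7.48, 7.29 and 6.72 in R3 in drug and 8.79, 9.21 and 9.78 in parental cells (adjusted p = 0.0127). ETV5 differed by -0.53 (adjusted p = 0.187), SPRY4 by -0.91 (adjusted p = 0.0201) and SPRY2 by -0.15 on the log2 scale (adjusted p = 0.749). Among the 5 above, none of them called, were the early response factor EGR1 at 6.14, 5.95 and 6.53 in R3 in drug and 5.36, 5.27 and 5.90 in parental cells, and the chemokine CXCL8 at 5.04, 5.07 and 6.41 in R3 in drug and 4.46, 4.48 and 4.59 in parental cells (log2).

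DUSP6 and ETV4 separated R3 from the other derivatives. DUSP6 averaged 8.95 ± 0.67 in R3 in drug, 5.62 ± 0.38 in R1 in drug, 5.53 ± 0.22 in R2 in drug and 5.91 ± 0.04 in parental cells after 24 h of drug (log2 level, SD, n = 3 each). The direct log2 difference was 3.33 from R1 in drug (adjusted p = 0.00526) and 3.42 from R2 in drug (adjusted p = 0.00324). ETV4 was also higher in R3, by 1.62 than in R1 in drug (adjusted p = 0.00681) and by 1.68 than in R2 in drug (log2, adjusted p = 0.00587). PHLDA1, induced by ERK, was at 12.44, 11.84 and 10.97 in R3 in drug, 7.86, 8.90 and 7.13 in R1 in drug and 7.10, 7.05 and 7.86 in R2 in drug (log2), and was called higher than in R2 (adjusted p = 0.00275) but not than in R1 (adjusted p = 0.0108). Of the 43 members, 4 rose and 1 fell in R3 in drug relative to R1 in drug, where 2.18% of all genes rose and 2.59% fell, and 5 rose and 2 fell relative to R2 in drug, where 1.01% of all genes rose and 2.10% fell. The list median was 0.51 against R1 and 0.50 against R2 in drug, beside 0.01 and 0.04 over all genes. These comparisons use the same R3 arrays, so their values are given side by side and not as separate evidence.

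**Figure D1:**
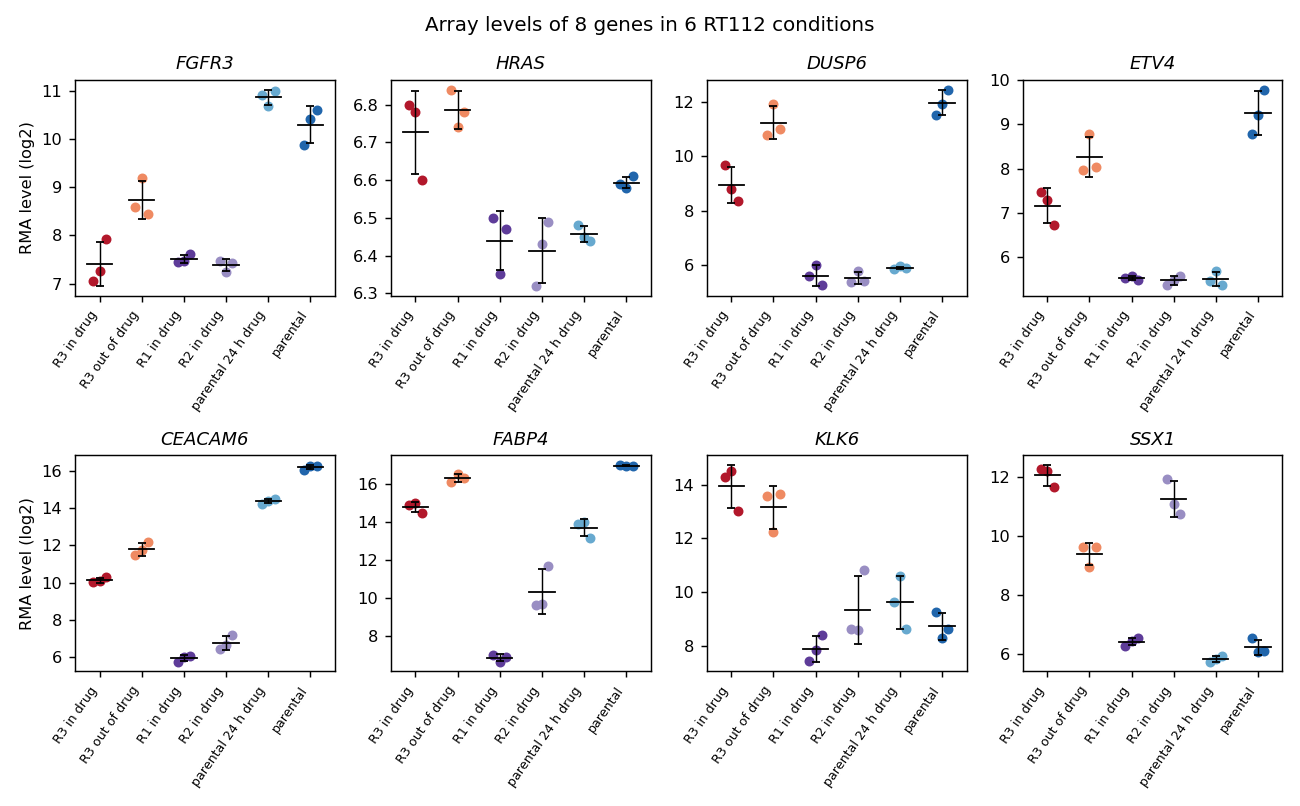
Log2 RMA level of FGFR3, HRAS, DUSP6, ETV4, CEACAM6, FABP4, KLK6 and SSX1 (y axis) in 6 RT112 conditions (x axis, 3 arrays each); points are arrays, long bars the mean and error bars 1 SD. DUSP6 sits at 8.37 to 9.68 in R3 in drug, between the parental arrays and those of R1 and R2 in drug, whereas FGFR3 in R3 in drug lies at the level of R1 and R2 in drug.

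Of 55 measured genes on the list of receptor tyrosine kinases, 0 rose and 3 fell in R3 in drug (5.45%, beside 1.05% of all genes). Of these 55, 13 (23.6%, beside 16.5% of all genes) lay wholly below and 7 (12.7%, beside 15.8%) wholly above the parental arrays. The 3 that fell were FGFR3, the kinase LMTK2 (log2 difference -1.22, adjusted p = 0.00861) and the ephrin receptor EPHA1 (-0.73, adjusted p = 0.00973). MET, the receptor of hepatocyte growth factor, had log2 levels of 12.37, 11.86 and 11.06 in R3 in drug and 10.65, 10.63 and 10.54 in parental cells. Its groups did not overlap, but the R3 arrays spread widely and the difference missed the threshold (adjusted p = 0.0675). EGFR was at 10.35, 9.41 and 9.0 in R3 in drug and 9.79, 9.53 and 9.47 in parental cells, with overlap (log2, adjusted p = 0.988). ERBB3, its kinase-impaired partner, was at 7.81, 8.38 and 9.55 in R3 in drug and 8.94, 9.64 and 9.68 in parental cells (log2, adjusted p = 0.292). IGF1R, the receptor of insulin-like growth factor, differed from parental cells by 0.02 (log2, adjusted p = 0.917) and INSR by -0.47 (log2, adjusted p = 0.196). IGF1R was lower in R3 than in R2 in drug (log2 difference -1.42, adjusted p = 0.00865), and differed from R1 in drug by -1.88 (adjusted p = 0.0134). Among 10 ligands of the EGFR family, 1 rose: EPGN, which encodes the EGFR ligand epigen, at 7.70, 8.75 and 7.43 in R3 in drug and 5.34, 5.16 and 5.35 in parental cells, a 6.39-fold rise (log2, adjusted p = 0.00884).

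The largest called rises were led by genes of unrelated function. SSX1, a cancer-testis gene, rose 56.5-fold, with log2 levels of 12.27, 12.20 and 11.64 in R3 in drug and 6.52, 6.05 and 6.08 in parental cells (adjusted p = 0.000866). KLK6, a secreted serine protease of the kallikrein family, rose 36.8-fold, at 14.27, 14.49 and 13.03 in R3 in drug and 9.26, 8.30 and 8.63 in parental cells (log2, adjusted p = 0.00352). Of 14 KLK genes measured, KLK6 was the single one called, and of 25 serine proteases and inhibitors TMPRSS11E rose too (log2 difference 0.96) and TMPRSS4 fell (-1.83). LCP1, an actin-bundling protein best known in blood cells, was 8.63-fold higher, at 11.23, 10.87 and 9.96 in R3 in drug and 7.69, 7.51 and 7.53 in parental cells (log2, adjusted p = 0.00511). ABCC2, an export pump for drug conjugates, rose by 2.65 on the log2 scale, CDA, which deaminates cytidine and its drug analogues, by 2.27, and LGALS1, a galactoside-binding lectin, by 2.28. The other genes among the 15 largest called rises were EPGN, EPDR1, TNFAIP3, SAMD9L, SSX8P, EPSTI1 and SSX6P. FYB1, an adaptor of immune cells, and WLS, which carries WNT proteins to the cell surface, were also among them. Some uncalled genes differed more than most of these, such as ANXA3 (3.34) and SLC7A11 (3.04, log2). LCP1 also stood high in R1 in drug (12.10 ± 0.97) and R2 in drug (12.33 ± 0.10), and KLK6 did not, at 7.91 ± 0.48 in R1 in drug and 9.34 ± 1.28 in R2 in drug (log2 level, SD, n = 3 each).

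Among the largest called falls were CEACAM6, TFF1, KRT4 and SLC14A1. CEACAM6, a cell adhesion molecule of epithelial surfaces, had log2 levels of 10.01, 10.08 and 10.29 in R3 in drug and 16.08, 16.25 and 16.28 in parental cells, a 67.5-fold fall and the lowest adjusted p of the comparison among named genes (1.44e-05). TFF1, a secreted trefoil peptide of mucous epithelia, fell 48.5-fold, at 7.58, 7.26 and 6.32 in R3 in drug and 12.09, 12.83 and 13.04 in parental cells (log2, adjusted p = 0.00263). KRT4, a keratin of wet stratified epithelia, fell 30.8-fold, at 7.77, 8.52 and 8.68 in R3 in drug and 12.63, 13.71 and 13.47 in parental cells (log2, adjusted p = 0.00271). In each of these genes the groups lay more than 2 log2 units apart at their nearest arrays. SLC14A1, a urea transporter of urothelium, was at 5.06, 5.11 and 5.27 in R3 in drug and 8.78, 9.36 and 9.87 in parental cells (log2 difference -4.19, adjusted p = 0.00222). The log2 difference was -4.80 for BTBD16, -3.10 for SPTSSB, a subunit of the enzyme that starts sphingolipid synthesis, -2.97 for PSAT1, an enzyme of serine synthesis, -2.62 for SLC1A1, a glutamate transporter, and -2.58 for THBD, the thrombin receptor thrombomodulin. Probes of CEACAM genes can share sequence with near-identical relatives, so values of single members are uncertain. Of 13 CEACAM genes measured, 3 fell and 0 rose: CEACAM6, CEACAM5 (log2 difference -4.06, adjusted p = 0.00532) and CEACAM1 (-1.57, adjusted p = 0.00554).

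**Figure D2:**
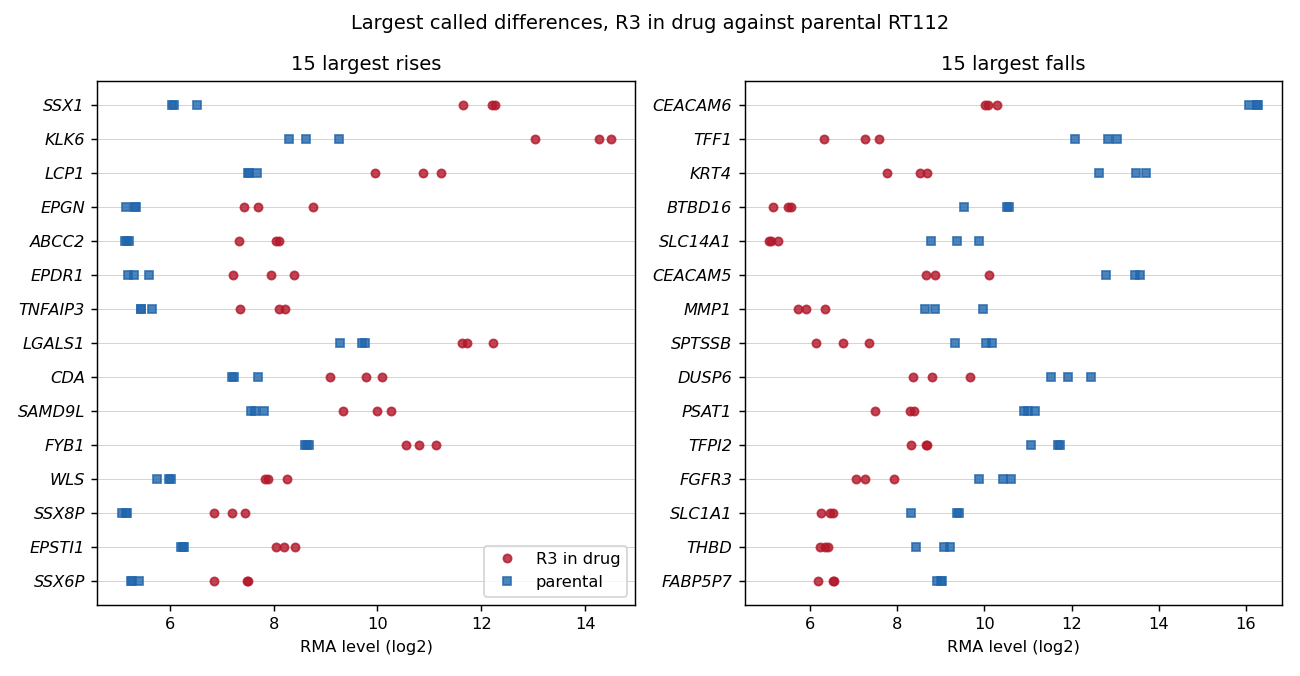
Log2 RMA levels (x axis) of the 15 largest called rises (left) and falls (right), 1 row per gene; circles are the 3 arrays of R3 in drug and squares the 3 parental arrays. Rows were chosen among genes without overlap between the groups, and in CEACAM6 the R3 arrays sit at 10.01 to 10.29.

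**Figure D3:**
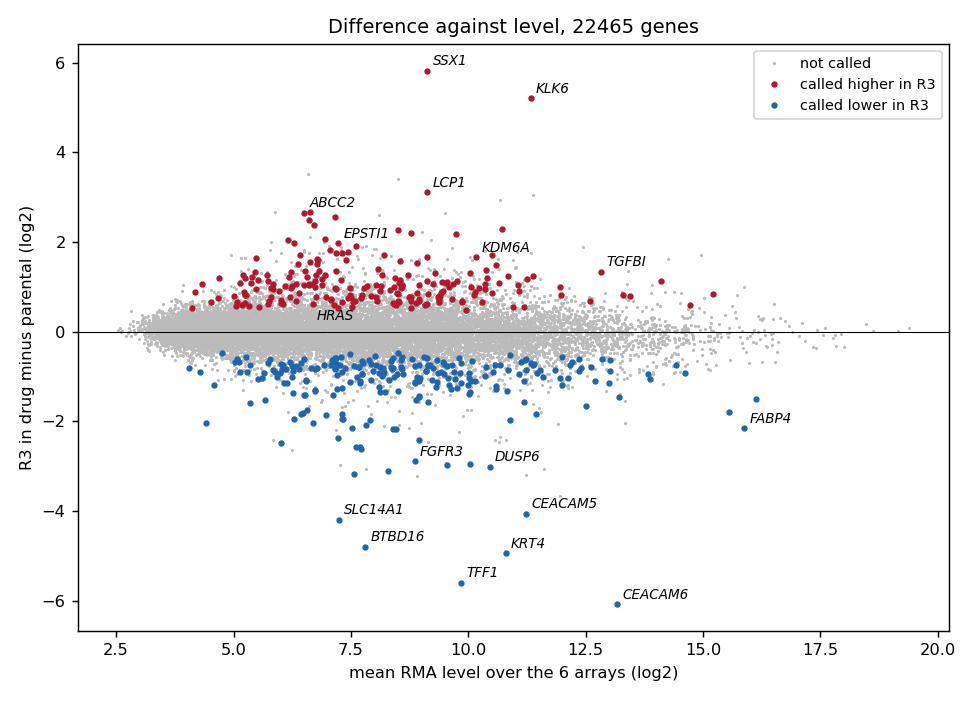
Log2 difference of R3 in drug minus parental (y axis) against the mean log2 level over the 6 arrays (x axis) for 22465 genes; called genes are coloured by direction. The 202 rises and 237 falls spread over the range of levels, with CEACAM6, TFF1, KRT4, SSX1 and KLK6 farthest from 0 and HRAS near 0.

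Markers of luminal differentiation tended to lie lower. Of 29 uroplakins and luminal markers, 0 rose and 2 fell (6.9%, beside 1.05% of all genes), FGFR3 and KRT13. The median log2 difference was -0.51. Of these markers 10 (34.5%, beside 16.5% of all genes) lay wholly below and 1 (3.45%, beside 15.8%) wholly above the parental arrays. KRT13, a keratin of the differentiated urothelium, was at 15.23, 15.62 and 15.27 in R3 in drug and 16.82, 16.87 and 16.93 in parental cells (log2 difference -1.50, adjusted p = 0.00312). UPK1A, a uroplakin, varied widely and was not called, at 8.01, 9.33 and 13.02 in R3 in drug and 11.94, 14.53 and 14.88 in parental cells (log2, adjusted p = 0.154), with R3 replicate 3 inside the parental range. None of 21 transcription factors of urothelial differentiation was called. Their median log2 difference was -0.46, and the epithelial ETS factor ELF5 had the largest difference, at 6.18, 7.31 and 8.39 in R3 in drug and 9.52, 10.85 and 11.16 in parental cells (log2, adjusted p = 0.0327). Of 33 basal-squamous genes, 0 rose and 2 fell (6.06%, beside 1.05% of all genes), the desmosomal cadherins DSC2 (log2 difference -1.82, adjusted p = 0.00282) and DSG2 (-0.74, adjusted p = 0.00685). In this list 12 members (36.4%, beside 16.5% of all genes) lay wholly below and 0 wholly above the parental arrays. KRT5, the basal keratin, was at 9.68, 10.31 and 8.14 in R3 in drug and 11.44, 11.52 and 12.39 in parental cells (log2, adjusted p = 0.0492). Over the 61 numbered keratins, 2 were called lower and 0 higher (1.05% and 0.899% of all genes). Of these keratins 24 lay wholly below and 0 wholly above the parental arrays (16.5% and 15.8% of all genes).

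S100, mucin and CEACAM genes fell in 4 of 32 cases (12.5%, beside 1.05% of all genes) and rose in 0. Like the other lists, this one was chosen with earlier results of these data known, so its share is a description only. Beside the 3 CEACAM genes, S100A4, a calcium-binding protein linked to motility, was at 5.37, 5.56 and 5.81 in R3 in drug and 6.91, 7.05 and 6.91 in parental cells (log2 difference -1.38, adjusted p = 0.0043). Of 37 epithelial adhesion genes 2 fell (5.41%, beside 1.05% of all genes), the same DSC2 and DSG2, and 0 rose, with a median log2 difference of -0.28. CDH1, the epithelial cadherin, had log2 levels of 13.73, 13.95 and 14.06 in R3 in drug and 14, 14.41 and 14.41 in parental cells, with overlap (adjusted p = 0.172).

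Mesenchymal genes lay more often above than below the parental arrays, with few calls. Against parental cells, 1 of 58 mesenchymal and matrix genes rose (1.72%, beside 0.899% of all genes) and 2 fell (3.45%, beside 1.05%). The other 55 were not called, and the median log2 difference was 0.18. The list had 19 members (32.8%, beside 15.8% of all genes) wholly above and 7 (12.1%, beside 16.5%) wholly below the parental arrays, and 44 above and 14 below 0. TGFBI, a matrix protein induced by TGF-beta, rose 2.52-fold, at 13.60, 13.50 and 13.36 in R3 in drug and 12.18, 12.10 and 12.18 in parental cells (log2, adjusted p = 0.00222), and LOXL1, an elastin cross-linking enzyme, fell 5.17-fold (adjusted p = 0.00336), as did S100A4. FN1, which encodes fibronectin, was at 12.66, 12.06 and 10.64 in R3 in drug and 10.75, 10.82 and 10.99 in parental cells (log2, adjusted p = 0.272), so R3 replicates 1 and 2 lay above the parental arrays and replicate 3 below them. CDH2, the neural cadherin, showed the same split, at 9.16, 8.35 and 6.30 in R3 in drug and 6.73, 6.51 and 6.88 in parental cells (log2, adjusted p = 0.306). SNAI2, a repressor of epithelial genes, was at 10.17, 9.21 and 8.88 in R3 in drug and 8.49, 8.01 and 8.23 in parental cells (log2, adjusted p = 0.0769), and VIM differed by 0.19 (log2, adjusted p = 0.135). FN1 averaged 15.57 ± 0.36 in R1 in drug and 15.14 ± 0.11 in R2 in drug (log2, SD, n = 3 each). R3 was lower than R1 in drug (log2 difference -3.79, adjusted p = 0.00966), and just missed the threshold against R2 in drug (-3.35, adjusted p = 0.0102). CALD1, an actin-binding protein, was called lower in R3 than in R1 (-2.32, adjusted p = 0.00839) and R2 in drug (-2.45, adjusted p = 0.00681, log2). Over the list, 0 members were higher and 6 lower (10.3%, beside 2.59% of all genes) in R3 than in R1 in drug. Relative to R2 in drug, 1 was higher (1.72%, beside 1.01% of all genes) and 3 lower (5.17%, beside 2.10%). Of 34 integrins and actin genes 1 rose and 0 fell against parental cells, LCP1. In the same list 8 were lower (23.5%, beside 2.59% of all genes) and 0 higher in R3 than in R1 in drug. Relative to R2 in drug, 7 were lower (20.6%, beside 2.10%) and 1 higher (2.94%, beside 1.01%). The medians were -0.94 and -0.81 (log2).

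YAP and TAZ are transcriptional co-activators held back by the Hippo pathway. Of their 31 targets and partners 2 rose (6.45%, beside 0.899% of all genes) and 0 fell in R3 in drug relative to parental cells. The median log2 difference was 0.29. Of the 31, 9 (29%, beside 15.8% of all genes) lay wholly above and 1 (3.23%, beside 16.5%) wholly below the parental arrays. CCDC80, a secreted matrix protein, was at 8.04, 8.14 and 7.73 in R3 in drug and 6.15, 6.06 and 6.26 in parental cells (log2 difference 1.81, adjusted p = 0.00263), and PTPN14, a phosphatase that binds YAP, at 9.31, 9.08 and 9.15 in R3 in drug and 8.31, 8.43 and 8.45 in parental cells (log2 difference 0.78, adjusted p = 0.00666). The classical targets CCN1, at 10.29, 8.10 and 7.02 in R3 in drug and 6.94, 6.66 and 6.92 in parental cells, and CCN2, at 6.60, 5.93 and 5.83 in R3 in drug and 4.97, 5.24 and 5.15 in parental cells (log2), were not called (adjusted p = 0.234 and 0.0361), and in both R3 replicate 1 was highest. Against R1 in drug, 0 members rose and 8 fell in R3 (25.8%, beside 2.59% of all genes). Against R2 in drug 0 rose and 3 fell (9.68%, beside 2.10% of all genes). The medians were -0.88 and -0.50 (log2). CCDC80 was lower in R3, with a log2 difference of -5.71 from R1 (adjusted p = 0.0036) and -4.61 from R2 (adjusted p = 0.00159).

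Several interferon-stimulated genes rose. Interferons act through JAK kinases and STAT factors on promoters that carry an interferon-stimulated response element. Of 45 such genes, 6 rose (13.3%, beside 0.899% of all genes), 1 fell and 38 were not called, and 20 lay wholly above the parental arrays (44.4%, beside 15.8% of all genes). The list's median log2 difference was 0.40. Some members, among them HERC6 (1.07) and DDX60 (1.24, log2, neither called), lie on the long arm of chromosome 4. On that arm 44.3% of all genes lay wholly above the parental arrays, and its part in the list was not tested. EPSTI1 had log2 levels of 8.04, 8.41 and 8.21 in R3 in drug and 6.28, 6.25 and 6.21 in parental cells (difference 1.97, adjusted p = 0.00222). IFIH1, the cytosolic sensor of long double-stranded RNA, was at 7.36, 7.61 and 7.80 in R3 in drug and 5.88, 6.05 and 5.96 in parental cells (log2 difference 1.63, adjusted p = 0.00301). SAMD9L, an antiviral and growth-restraining factor, was at 9.34, 10 and 10.27 in R3 in drug and 7.81, 7.56 and 7.65 in parental cells (log2 difference 2.20, adjusted p = 0.0063). In all 3 the groups were separate. IFIT3 rose by 1.04, XAF1 by 0.96 and IFIT5 by 0.78 on the log2 scale. The member that fell was OAS3, an enzyme that makes the activator of RNase L, at 8.0, 7.99 and 7.95 in R3 in drug and 8.84, 8.67 and 8.88 in parental cells (log2 difference -0.82, adjusted p = 0.00464). IFI6, a mitochondrial interferon-induced protein, had the largest difference but was not called, at 9.22, 9.77 and 11.66 in R3 in drug and 6.89, 6.70 and 6.82 in parental cells (log2, adjusted p = 0.0215), with R3 replicate 3 far above the other two. Each of the 6 rises kept its direction but missed the threshold without R3 replicate 2 or without any 1 of the parental arrays. R1 and R2 in drug stood higher still: 0 members were higher and 4 lower (8.89%, beside 2.59% of all genes) in R3 than in R1 in drug. Relative to R2 in drug, 0 were higher and 11 lower (24.4%, beside 2.10% of all genes). The medians were -0.46 and -1.26 (log2).

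The promoters of 4 of the 6 genes that rose, and that of the 1 that fell, held the core letters of the response element, and are shown to set those letters beside the values. The motif searched was GAAA, then NN for any bases, then GAAA, on both strands, in the 250 bases before each start in RefSeq (GRCh38.p14). It was in 1061 of 35116 such promoters (3.02%). Of the 45 measured genes of the list 36 had a promoter there, and 25 of these held the motif: 13 of the 18 that lay wholly above the parental arrays and 11 of the 16 that overlapped them. Capitals mark the matches. Each sequence reads 5′ to 3′ on the strand of its gene.
EPSTI1, chr13:42992242-42992491, minus strand: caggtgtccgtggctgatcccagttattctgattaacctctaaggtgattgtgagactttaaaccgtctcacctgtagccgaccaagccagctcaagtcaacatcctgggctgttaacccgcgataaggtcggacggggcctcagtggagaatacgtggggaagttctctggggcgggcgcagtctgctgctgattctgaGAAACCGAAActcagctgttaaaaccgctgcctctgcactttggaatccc
IFIH1, chr2:162318685-162318934, minus strand: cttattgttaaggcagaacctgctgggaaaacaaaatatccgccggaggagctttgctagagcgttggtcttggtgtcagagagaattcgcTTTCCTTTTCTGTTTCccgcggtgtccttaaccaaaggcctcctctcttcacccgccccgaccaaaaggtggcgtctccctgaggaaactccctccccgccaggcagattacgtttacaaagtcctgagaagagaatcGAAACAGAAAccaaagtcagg
IFIT3, chr10:89332279-89332528, plus strand: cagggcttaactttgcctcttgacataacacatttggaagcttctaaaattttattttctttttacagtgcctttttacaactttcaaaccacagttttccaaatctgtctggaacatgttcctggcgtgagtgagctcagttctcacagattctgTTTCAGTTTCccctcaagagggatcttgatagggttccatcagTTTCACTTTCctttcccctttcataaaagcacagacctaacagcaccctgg
IFIT5, chr10:89414318-89414567, plus strand: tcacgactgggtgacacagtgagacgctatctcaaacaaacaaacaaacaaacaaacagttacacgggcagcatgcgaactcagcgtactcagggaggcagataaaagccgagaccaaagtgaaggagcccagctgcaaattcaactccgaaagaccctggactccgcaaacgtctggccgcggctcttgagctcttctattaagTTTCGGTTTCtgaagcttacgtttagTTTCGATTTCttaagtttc
OAS3, chr12:112938224-112938473, plus strand: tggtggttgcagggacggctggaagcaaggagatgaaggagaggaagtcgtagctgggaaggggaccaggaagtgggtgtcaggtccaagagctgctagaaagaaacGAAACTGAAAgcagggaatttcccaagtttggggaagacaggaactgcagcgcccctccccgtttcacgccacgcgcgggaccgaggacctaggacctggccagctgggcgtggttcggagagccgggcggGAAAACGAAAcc
IFIT3 has 2 listed starts, both with the motif, and the second is shown. EPSTI1, which rose, and OAS3, which fell, both carry it. A match is a description of letters and not a bound site, and binding was not measured.

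Genes of cytokine signalling and of the p53 response also lay higher in part. TNFAIP3, the A20 enzyme that restrains NF-kappaB, was the 1 member called of 32 chemokines and cytokines, at 8.22, 7.36 and 8.11 in R3 in drug and 5.65, 5.44 and 5.45 in parental cells, a 5.22-fold rise (log2, adjusted p = 0.00469). IL1A was at 12.40, 10.40 and 9.67 in R3 in drug and 9.18, 7.56 and 7.79 in parental cells, and IL1B at 11.88, 10.60 and 10.11 in R3 in drug and 9.64, 8.77 and 9.22 in parental cells (log2). Both interleukin-1 genes were separate between groups but uncalled (adjusted p = 0.0822 and 0.0777). Of 20 p53 targets 1 rose, TIGAR, a phosphatase that slows glycolysis (log2 difference 0.70, adjusted p = 0.00843). No member fell, 11 (55%, beside 15.8% of all genes) lay wholly above and 0 wholly below the parental arrays, and the median log2 difference was 0.41. CDKN1A, which encodes the cell cycle inhibitor p21, was at 9.20, 9.14 and 8.99 in R3 in drug and 8.61, 8.55 and 8.70 in parental cells (log2, adjusted p = 0.0203). Of 20 class I antigen presentation genes, 1 rose, the peptide-trimming enzyme ERAP2 (log2 difference 0.88, adjusted p = 0.00834), with 10 (50%, beside 15.8% of all genes) wholly above and 0 wholly below the parental arrays. Of 42 WNT and Notch genes the WNT receptor FZD2 rose (log2 difference 0.96), and the co-receptor LRP5 (-1.28) and the transcription factor TCF7L2 (-1.0) fell. None of 33 TGF-beta pathway genes, 19 cyclins and CDK inhibitors, 17 MHC class II genes or 27 BCL2 family and death receptor genes was called.

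Among lipid and metabolic genes FABP4, AQP3, FABP5, SREBF2, DGAT2, HK2 and PSAT1 fell. FABP4, a fatty acid carrier and a target of PPAR-gamma, was at 14.90, 15 and 14.48 in R3 in drug and 16.97, 16.91 and 16.95 in parental cells, a 4.44-fold fall (log2, adjusted p = 0.00256). AQP3, a water and glycerol channel of epithelia (log2 difference -1.98, adjusted p = 0.00609), and FABP5, the epidermal fatty acid carrier (-0.82, adjusted p = 0.00497), fell too. With FABP4 they were the 3 called of 27 PPAR targets and lipid genes (11.1% lower, beside 1.05% of all genes). The FABP5 probes and those of the pseudogenes FABP5P7 (-2.56) and FABP5P1 (-2.08, log2) can read one another's transcripts, so these values are uncertain. PPARG itself was at 9.03, 9.12 and 9.10 in R3 in drug and 9.49, 9.64 and 9.56 in parental cells, separate but uncalled (log2, adjusted p = 0.0136). Of 23 cholesterol genes the regulator SREBF2 fell (log2 difference -0.78, adjusted p = 0.00812), and of 24 fatty acid synthesis genes DGAT2, which makes triglyceride, fell (-1.34, adjusted p = 0.00453). In the fatty acid list 9 of 24 members (37.5%, beside 15.8% of all genes) lay wholly above and 6 (25%, beside 16.5%) wholly below the parental arrays, with a median log2 difference of 0.10. In the cholesterol list 1 (4.35%, beside 15.8% of all genes) lay wholly above and 7 (30.4%, beside 16.5%) wholly below, with a median of -0.02. Of 38 glycolysis and hypoxia genes the hexokinase HK2 fell, at 8.09, 7.72 and 7.68 in R3 in drug and 9.12, 9.05 and 9.30 in parental cells (log2 difference -1.33, adjusted p = 0.00516). PSAT1 was the 1 gene called of 31 in the ATF4 stress list, at 8.38, 8.29 and 7.49 in R3 in drug and 11.15, 10.91 and 11.01 in parental cells (log2, adjusted p = 0.00336). Of 37 drug transport and metabolism genes ABCC2 rose, at 8.04, 8.11 and 7.33 in R3 in drug and 5.22, 5.17 and 5.14 in parental cells (log2, adjusted p = 0.00315), and ABCC3, a related export pump, fell (-1.14, adjusted p = 0.00446). GPX4, which detoxifies lipid peroxides, differed from parental cells by -0.30 (adjusted p = 0.138) but was lower than in R1 in drug (log2 difference -1.67, adjusted p = 0.00248) and in R2 in drug (-1.69, adjusted p = 0.00244).

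Replication genes had a median near 0 against parental cells, mitosis and ribosome biogenesis genes lay slightly lower, and all had medians above 0 against R1 and R2 in drug. None of 44 DNA replication genes and none of 42 ribosome biogenesis genes was called against parental cells, with median log2 differences of -0.01 and -0.14. Of the ribosome biogenesis genes 28 lay below 0 and 14 above. Of these genes 2 (4.76%, beside 16.5% of all genes) lay wholly below and 0 (beside 15.8%) wholly above the parental arrays. Mitosis genes had a median of -0.13, with 19 (33.9%, beside 16.5% of all genes) wholly below and 9 (16.1%, beside 15.8%) wholly above the parental arrays. Of 56 mitosis genes 1 rose and 2 fell: CCNA2, which encodes cyclin A2, at 14.75, 14.87 and 14.43 in R3 in drug and 13.66, 13.51 and 13.47 in parental cells (log2 difference 1.14, adjusted p = 0.00696), the condensin subunit NCAPD2 (-0.79, adjusted p = 0.00666) and the spindle protein HMMR (-0.74, adjusted p = 0.00859). In the direct comparison the DNA replication list had a median of 1.58 in R3 against R1 in drug, with 16 of 44 members wholly above and 0 wholly below (19.5% and 17.6% of all genes), and of 0.98 against R2 in drug, with 30 wholly above and 0 below (16.5% and 15.5% of all genes, log2). Mitosis genes had a median of 0.93 against R1 in drug, but 0 of 56 were separate from it in either direction, and of 0.73 against R2 in drug, with 38 wholly above and 0 below. Ribosome biogenesis genes had a median of 1.20 against R1 in drug, with 32 of 42 wholly above and 0 below, and of 0.82 against R2 in drug, with 9 wholly above and 0 below. No single replication gene passed the threshold in either direct comparison. MCM6, a subunit of the replicative helicase, was at 10.45, 10.62 and 10.29 in R3 in drug, 7.83, 7.53 and 9.34 in R1 in drug and 9.36, 8.86 and 10.36 in R2 in drug (log2, adjusted p = 0.0298 against R1 and 0.152 against R2). Replicate 3 was the highest array of both R1 and R2. Of 56 oxidative phosphorylation genes written 38 were measured, and many ATP synthase subunits, written under older symbols, were not. Of the 38, 1 rose and 1 fell against parental cells, the complex I genes NDUFC1 (log2 difference 1.17) and NDUFV1 (-0.86). The ATP synthase subunit gene ATP5ME, not counted in the list, was called lower (log2 difference -1.03). In the same list 10 were higher (26.3%, beside 2.18% of all genes) and 0 lower in R3 than in R1 in drug, and 0 were called against R2 in drug.

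**Figure D4:**
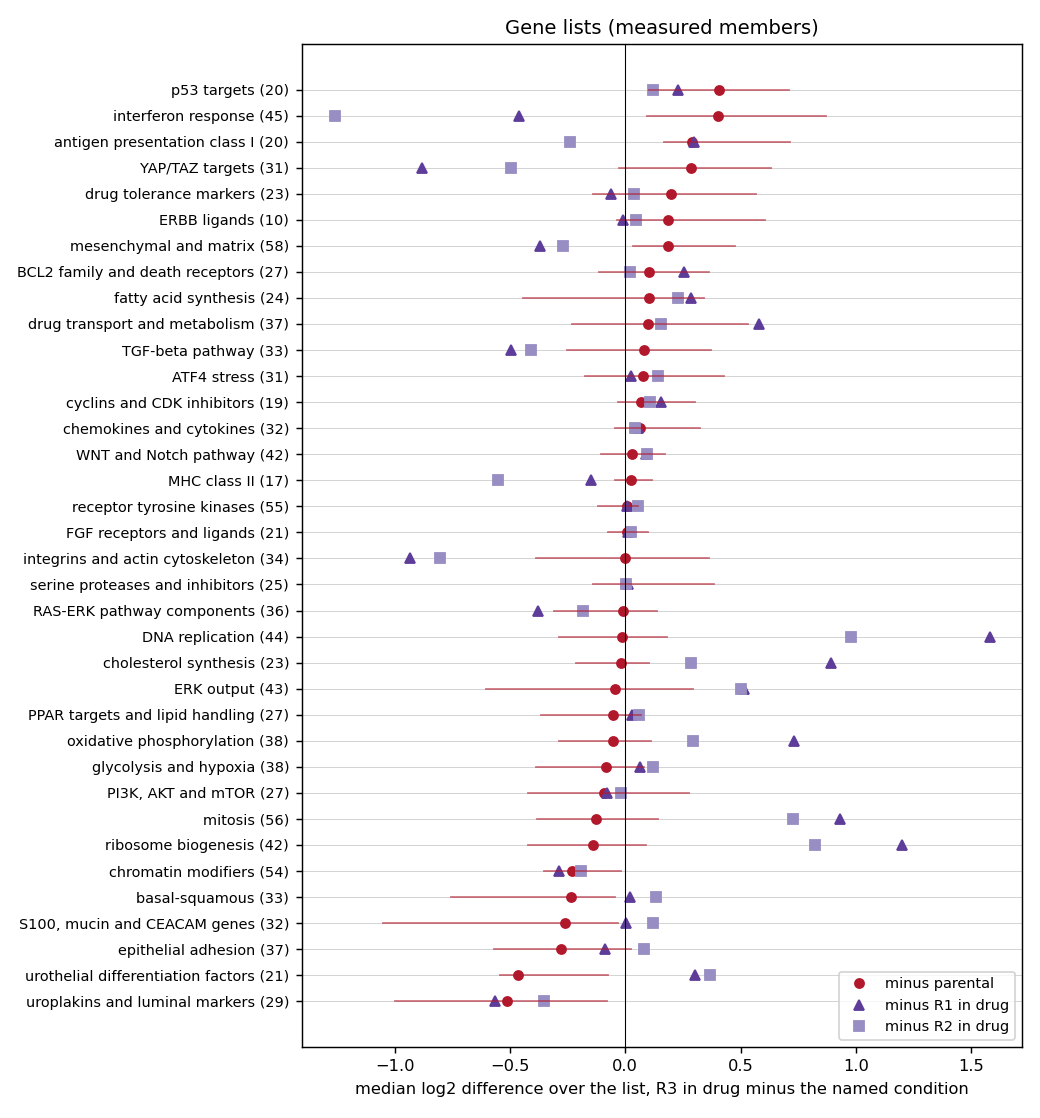
Median log2 difference (x axis) of 36 gene lists (y axis, measured members in brackets) for R3 in drug minus parental (circles, with a line over the middle 50% of members), minus R1 in drug (triangles) and minus R2 in drug (squares). Replication, mitosis and ribosome biogenesis lie at -0.01, -0.13 and -0.14 against parental cells and right of 0.72 against R1 and R2. Interferon genes lie at 0.40 against parental cells and below 0 against R1 and R2.

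Among chromatin and drug tolerance genes, KDM6A, a histone H3K27 demethylase on the X chromosome, rose. Its log2 levels were 11.10, 10.99 and 10.90 in R3 in drug and 9.29, 9.40 and 9.32 in parental cells, a 3.16-fold rise (adjusted p = 0.00175), and it averaged 11.35 ± 0.33 in R1 in drug and 11.69 ± 0.30 in R2 in drug (log2, SD, n = 3 each). KDM6A was 1.18 higher in R3 in drug than in R3 out of drug, with no overlap, but was not called there (log2, adjusted p = 0.0486). Against parental cells it was the 1 member called of 54 chromatin modifiers (1.85%, beside 0.899% of all genes called higher) and of 23 drug tolerance markers. The chromatin list otherwise lay lower: 21 members (38.9%, beside 16.5% of all genes) were wholly below and 7 (13%, beside 15.8%) wholly above the parental arrays, with a median log2 difference of -0.23. The tolerance list had 8 members (34.8%, beside 15.8% of all genes) wholly above and 3 (13%, beside 16.5%) wholly below, with a median of 0.20. KDM5A, a demethylase linked to drug tolerance, differed by -0.38 (adjusted p = 0.0677), and CD24, a surface marker of tolerant cells, by 0.64 (log2, adjusted p = 0.0226). CD24 was lower in R3 than in R1 in drug (-0.99, adjusted p = 0.00179) and R2 in drug (-0.93, log2, adjusted p = 0.00509). IGFBP3, a carrier of insulin-like growth factors, differed from parental cells by 0.20 (adjusted p = 0.736) and from R1 in drug by -2.39 (log2, adjusted p = 0.00715), and PRDX6, a peroxidase, differed from parental cells by 0.39 (log2, adjusted p = 0.135).

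Beside SSX1, other cancer-testis genes of the X chromosome were singled out after their values were seen. Of 8 SSX genes and pseudogenes measured 5 were called higher and 0 lower, and 7 lay wholly above the parental arrays (0.899%, 1.05% and 15.8% of all genes). SSX8P rose by 2.04, SSX6P by 1.97, SSX5 by 1.09 and SSX7 by 0.79 on the log2 scale. SSX genes are near-identical in sequence, so the probes of one can read another and the smaller values are uncertain. Of 20 MAGE-A, -B and -C genes 2 rose and 4 lay wholly above the parental arrays (0.899% and 15.8% of all genes), with a median log2 difference of 0.11. The risers were MAGEA3 at 7.36, 7.52 and 7.73 in R3 in drug and 6.08, 6.03 and 5.96 in parental cells, and MAGEA6 at 7.07, 7.19 and 7.12 in R3 in drug and 6.12, 6.06 and 6.08 in parental cells (log2). SSX1 was at 6.28, 6.42 and 6.54 in R1 in drug, 11.93, 11.06 and 10.74 in R2 in drug and 9.60, 8.94 and 9.60 in R3 out of drug (log2). Against R3 out of drug the log2 difference was 2.66 for SSX1, 0.05 for MAGEA3 and -0.13 for MAGEA6, of which none was called. For SSX1, R3 in drug lay above R1 in drug by 5.62 (adjusted p = 0.000371) and differed from R2 in drug by 0.79 (log2, adjusted p = 0.173).

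The calls were unevenly spread over the chromosomes. Of the 202 rises 37 (18.3%) lay on the long arm of chromosome 4, which holds 2.57% of the genes tested, with 1 fall there among its 578 genes. On the short arm of chromosome 4, with 249 genes, 2 rose (0.803%, beside 0.899% of all genes) and 9 fell (3.61%, beside 1.05%). In band 8p11, with 51 genes, 6 rose (11.8%) and 0 fell. The median log2 difference over genes with a mean level above 6 in either group was 0.56 on the long arm of 4 (278 genes), -0.25 on its short arm (123 genes) and 0.62 in 8p11 (31 genes), beside -0.03 over all such genes. No other chromosome had a median beyond -0.08 or 0.03. Array by array, the long arm of 4 lay 0.585, 0.553 and 0.485 above the parental mean in R3 in drug, and the 3 parental arrays lay at -0.002, 0.002 and 0.007 (median log2 difference). It averaged 0.51 in R3 out of drug, 0.10 in R1 in drug and 0.28 in R2 in drug. Band 8p11 averaged 0.57 in R3 in drug, 0.92 in R1 in drug and 0.81 in R2 in drug. The short arm of 4 lay at -0.19, -0.28 and -0.33 in R3 in drug, against -0.10, -0.06 and 0.10 in R3 out of drug. It averaged -0.22 in R1 in drug and -0.06 in R2 in drug, so R1 in drug lay near R3 in drug on this arm.

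The called genes of these regions had varied functions. EPGN, CCNA2 and the respiratory chain gene NDUFC1 (log2 difference 1.17, adjusted p = 0.00912) lie on the long arm of 4, together with FBXW7, a ubiquitin ligase subunit that marks cyclin E for decay, at 8.67, 8.53 and 8.46 in R3 in drug and 7.58, 7.40 and 7.58 in parental cells (log2), PLRG1, a splicing factor, at 11.13, 11.06 and 10.78 in R3 in drug and 9.72, 9.81 and 9.85 in parental cells, and DAPP1, a B cell adaptor protein, with a log2 difference of 1.60. FGFR3 and the transcriptional co-repressor CTBP1, at 8.31, 8.21 and 8.21 in R3 in drug and 8.90, 8.82 and 8.91 in parental cells (log2, adjusted p = 0.00609), lie on the short arm. FGFR3 fell far more than its neighbours, whose other 8 called falls were between -0.63 and -1.08 on the log2 scale. The 6 rises of 8p11 were VDAC3 (0.90), ASH2L (0.86), GPAT4 (0.83), GOLGA7 (0.81), LSM1 (0.76) and ADAM9 (0.59, log2). ASH2L, a subunit of histone H3K4 methyltransferases, was at 9.29, 9.33 and 9.41 in R3 in drug and 8.46, 8.52 and 8.47 in parental cells (log2). The genes FBXW7, PLRG1, DAPP1, CTBP1 and those of 8p11 were chosen for mention after their values were seen. These 3 regions were set apart because the study's copy number profile of R3 names them, and the part of copy number in each gene's level was not tested.

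**Figure D5:**
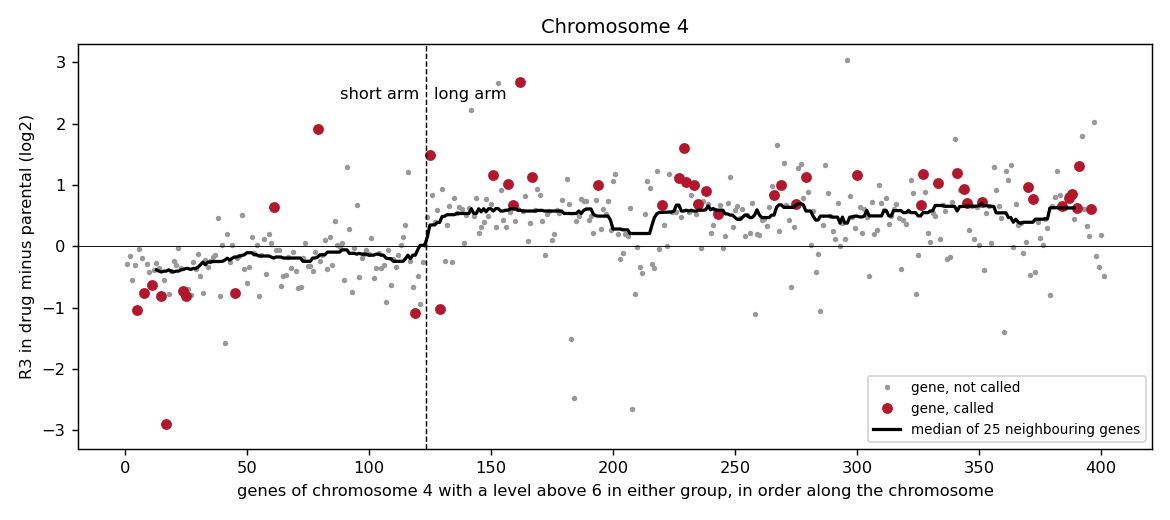
Log2 difference of R3 in drug minus parental (y axis) for 401 genes of chromosome 4 with a mean level above 6 in either group, in order along the chromosome (x axis); red points are the 47 called genes and the line is the median of 25 neighbouring genes. The line lies below 0 along most of the short arm and above 0 along the long arm.

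Set against R1 and R2 in drug directly, R3 in drug was higher in FABP4, ANXA10 and TMPRSS4 and lower in HSD3B1 and GABRP in both comparisons. Relative to R1 in drug, 490 genes (2.18%) were higher and 581 (2.59%) lower, 4.77% in all, and relative to R2 in drug 228 (1.01%) were higher and 472 (2.10%) lower, 3.12% in all. The first count was 12, 9 and 536 without R3 replicates 1, 2 and 3, and 66, 251 and 1834 without R1 replicates 1, 2 and 3. The second was 261, 61 and 840 without R3 replicates 1, 2 and 3, and 68, 71 and 776 without R2 replicates 1, 2 and 3. FABP4 was 7.92 higher in R3 than in R1 (adjusted p = 0.000224) and 4.46 higher than in R2 in drug (log2, adjusted p = 0.00647). ANXA10, a calcium-dependent membrane-binding protein, was at 13.19, 12.92 and 11.48 in R3 in drug, 4.95, 5.16 and 5.03 in R1 in drug and 5.06, 4.87 and 5.57 in R2 in drug (log2). TMPRSS4, a transmembrane serine protease, was at 10.52, 10.49 and 10.58 in R3 in drug, 5.72, 5.72 and 6.44 in R1 in drug, 5.97, 6.13 and 6.83 in R2 in drug and 12.24, 12.34 and 12.51 in parental cells (log2), so R3 lay between the other derivatives and parental cells. LAPTM5, a lysosomal membrane protein best known in blood cells, was 7.17 higher than in R1 in drug (log2, adjusted p = 0.00275). Lower in R3 than in R1 in drug were HSD3B1, an enzyme of steroid synthesis (log2 difference -7.80), GABRP, a GABA receptor subunit (-7.35), and the placental alkaline phosphatases ALPP (-6.34) and ALPG (-6.23), a pair of near-identical sequence. Lower in R3 than in R2 in drug were STEAP4, a metalloreductase (log2 difference -7.86, and -1.72 from R1 in drug, not called at an adjusted p of 0.0192), SESN3, a sestrin (-7.10), SLC16A4, a monocarboxylate carrier (-6.64), and the membrane protein TM4SF1 (-6.33). Against parental cells the log2 difference was -0.19 (HSD3B1), 0.52 (GABRP) and -0.19 (STEAP4), none of them called. Of the 439 genes called against parental cells, 46 were also called against both R1 and R2 in drug and 291 against neither.

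Within R3, the presence of drug gave no called gene. R3 in drug against R3 out of drug had 0 genes (0%) at an adjusted p under 0.01 (limma), 10 at 0.05, 21 at 0.01 in a fit over all 24 RT112 arrays, and 1766 at an unadjusted p under 0.05. The mean profiles of R3 in and out of drug lay 32.7 apart in Euclidean distance, against 57.7 for R3 in drug and parental cells, 101 for R3 and R1 in drug and 83.1 for R3 and R2 in drug. DUSP6 was at 9.68, 8.80 and 8.37 in R3 in drug and 10.77, 11.90 and 10.99 in R3 out of drug (log2 difference -2.27, adjusted p = 0.218). PSAT1 was at 8.38, 8.29 and 7.49 in R3 in drug and 9.75, 11.32 and 10.56 in R3 out of drug (log2, adjusted p = 0.185), and SSX1 at 12.27, 12.20 and 11.64 in R3 in drug, above its values out of drug (adjusted p = 0.0486). In these 3 genes the groups did not overlap, which held for 5.21% of all genes in the upward and 6.29% in the downward direction. KLK6 was at 14.27, 14.49 and 13.03 in R3 in drug and 13.57, 12.24 and 13.64 in R3 out of drug (log2), with overlap, against 9.26, 8.30 and 8.63 in parental cells. KRT4 was at 7.77, 8.52 and 8.68 in R3 in drug and 8.92, 8.08 and 9.19 in R3 out of drug, against 12.63, 13.71 and 13.47 in parental cells (log2). In both genes the arrays out of drug also lay clear of the parental ones. Of the 31 YAP and TAZ genes 13 lay wholly above and 0 wholly below their values out of drug, with a median log2 difference of 0.32, and of 38 oxidative phosphorylation genes 0 lay wholly above and 21 wholly below, with a median of -0.21.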

How the data were processed

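RNA of each culture was hybridised to a human transcriptome array by a service laboratory, 1 array per sample. The values used are the log2 levels the authors deposited, made, per the labels, with Affymetrix Expression Console and robust multi-array averaging (RMA), which corrects background, sets all arrays to 1 distribution and summarises the probes of a transcript. Versions are not given in the sources used here. Array medians were 4.86 to 5.08, and the number of arrays limits the precision. Of 70523 probe sets, 23781 had 1 gene symbol, 1543 had several and were left out, and where a symbol had more than 1 probe set (479 symbols) the brightest on average in the 24 RT112 arrays stood for it, which gave 22465 genes.

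Each comparison of 3 against 3 arrays was fitted alone with limma 3.58.1 in R 4.3.3 (lmFit, eBayes) and adjusted by Benjamini-Hochberg over 22465 genes, and a gene was called at an adjusted p under 0.01. The fit was tested on simulated data. Lists were described by counts and medians. Of 1357 list members written, 1229 were measured. The members and lists were chosen with earlier results of these data known. Genes were named by rule: those the study's text names for RT112, up to 4 called members of each list (or the 2 with the largest difference), the 15 largest rises and falls against parental cells and the 5 largest against the other R3 comparisons. The largest rises and falls were taken among called genes whose arrays did not overlap. Symbols of unnamed loci, open reading frames, antisense transcripts and several classes of noncoding RNA were left out. Others, among them genes of the SSX, MAGE-A, KLK and CEACAM families, were named after their values were seen. Promoters and chromosomes came from RefSeq, GRCh38.p14, in which 22167 genes were found. The alternatives were 1 fit over all 24 RT112 arrays, all single-symbol probe sets, a robust prior with a trend and leaving out genes of low level (under percentile 30). Others were quantile normalization, median centring, the replicate number as a block and a t-test of each gene. The last were a minimum log2 difference of 1, an adjusted p under 0.05, and leaving out each array. For differential expression the study used limma at a false discovery rate of 0.01, the setting of the main fit. It names t-tests, beside analysis of variance, for levels of single genes and for signatures.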

Additional observations from a re-analysis of the deposited data

Results flagged for a closer look

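Of the genes called against parental cells, 8 named ones were also called in direct comparisons with both R1 and R2 in drug, which marks them as differing between derivatives. All these comparisons share the R3 arrays. The log2 difference of R3 in drug minus R1 in drug and minus R2 in drug was 7.92 and 4.46 for FABP4, 4.57 and 4.22 for TMPRSS4, 4.19 and 3.38 for CEACAM6, 4.02 and 4.08 for CEACAM5, and 3.33 and 3.42 for DUSP6. These 5 genes were lower than in parental cells and higher than in R1 and R2. It was -5.71 and -4.61 for CCDC80, -3.94 and -4.02 for CDA, and -1.94 and -3.25 for EPSTI1. These 3 genes were higher than in parental cells and lower than in R1 and R2. Without 1 array the counts of called genes behind these comparisons move widely, and the cause was not tested.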

How the results depend on the processing

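No called named gene and no region median changed direction in any alternative to R3 in drug against parental cells. For the called genes only quantile normalization and median centring could have changed it, because their arrays did not overlap. The count of called genes was 439 against parental cells, 1071 against R1 in drug, 700 against R2 in drug and 0 against R3 out of drug. One fit over all 24 RT112 arrays gave 1388, 5267, 2915 and 21 in this order, and an adjusted p under 0.05 gave 2333, 3901, 2896 and 10. The t-test of each gene, which was not the study's test for differential expression, gave 3, 15, 1 and 0 after adjustment. A minimum log2 difference of 1 gave 209 against parental cells, and the trended and robust prior gave 2 against R3 out of drug. Leaving out 1 array gave 1 to 738, 9 to 1834, 61 to 840 and 0 to 0. Every probe set, the filter, quantile normalization and median centring kept the counts within 1.5 times. The median log2 difference of all measured genes was 0.19 on the long arm of chromosome 4, -0.083 on its short arm and 0.2 in 8p11. With the filter on low genes it was 0.447, -0.178 and 0.487, and median centring gave -0.103 on the short arm. Leaving out 1 array gave 0.169 to 0.209, -0.102 to -0.068 and 0.197 to 0.23.

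With the replicate number as a block, 9 genes were called against parental cells, 0 against R1 in drug, 0 against R2 in drug and 0 against R3 out of drug, and 6 of the 89 called named genes kept their call. The deviations of same-numbered R3 and parental arrays correlated at 0.36, -0.05 and 0.17, so the labels and the data do not show that a number pairs arrays. The t-test of each gene gave 5367 genes against parental cells at an unadjusted p under 0.05 and 538 at an adjusted p under 0.05. With 3 arrays a condition an exact permutation test of 1 gene cannot go under p = 0.1.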
